A study of Arabidopsis thaliana with 12 samples.

Results

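Translation efficiency, the ribosome footprints on a gene relative to its mRNA, was compared between *Arabidopsis thaliana* shoots grown with excess boric acid and shoots grown with a normal supply. Every gene measured in both assays was considered. Of 27655 genes in the tables, 20826 had a count in both assays, and 17306 had enough counts in both to be tested. High boron (labelled Bplus) was 500 µM boric acid in the medium, and the control (Ctrl) 30 µM. Each was measured in 2 footprint and 2 RNA libraries, which makes 8 of the 12 libraries of the series. The other 4 came from low boron (Bminus, 0.3 µM) and entered the fit for the estimate of the spread. All plants were wild type of ecotype Col-0, and each replicate pooled the whole shoots of about 300 seedlings at 14 days of age. They grew on MGRL medium, a mineral medium for seedlings, which held sucrose in all groups. Extracts for footprints contained cycloheximide, which stops elongating ribosomes, and RNase I removed the mRNA that ribosomes did not cover. Pooled whole shoots are a mixture of cell types, so fewer cells of a type and less RNA or fewer ribosomes per cell cannot be told apart.

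Boron is an essential element that crosslinks the pectic polysaccharide rhamnogalacturonan II in plant cell walls, and it is toxic in excess. Plants take it up through boric acid channels of the NIP family and move it out of cells with borate exporters of the BOR family. These transporters are known to be controlled by boron at several levels: BOR1 through translation and through removal of the protein, and NIP5;1 through a start codon with a stop codon immediately after it in the 5′ leader (AUG-stop), where ribosomes stall when boron is ample. A change in translation efficiency can come from footprints, from mRNA or from both, and where the mRNA of a gene rises and its footprints do not, the ratio falls. The mRNA change enters the ratio with a negative sign, so the mRNA and efficiency changes of a gene are not independent measurements.

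Translation efficiency fell for many more genes than it rose at high boron. Among the 17306 genes, 127 changed (0.734%, edgeR quasi-likelihood test, Benjamini-Hochberg adjusted p under 0.05), of which 121 fell (0.699%) and 6 rose (0.0347%). The median change over all genes tested was 0.03 on the log2 scale, with the 10th percentile at -0.48 and the 90th at 0.45. The genes that fell had a median change of -1.21, and 94 of them stood at -1 or lower. At an unadjusted p under 0.05 there were 1429 genes, 879 of them lower. The count of 121 was 35 without Ctrl RNA library 3, 47 and 48 without high-boron RNA libraries 2 and 3, 68 without Ctrl RNA library 2, and 75 without low-boron RNA library 2 and also without library 3. It was 57 when the low-boron libraries were left out of the fit.

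Total counts were 13351151 and 7446195 footprints for high boron, against 12274466 and 6903881 for Ctrl, and 7563365 and 9256564 RNA reads for high boron, against 9091475 and 8781846 for Ctrl. Footprints varied more between replicate libraries than mRNA, with a biological coefficient of variation of 14.9% for footprints and 6.92% for mRNA. Chloroplast-encoded genes took 8.14% and 2.79% of footprint counts in the high-boron libraries, against 4.91% and 4.04% in the Ctrl libraries, and leaving organelle-encoded genes out gave 128 genes lower and 7 higher. The 38 nuclear photosynthesis genes that mark shoot tissue took 6.97% to 10.1% of counts in the high-boron libraries, against 7.81% to 9.86% in the Ctrl libraries. Summed root markers took at most 0.00424% of a high-boron library and at most 0.00507% of a Ctrl library, and summed floral markers at most 0.000554%, against 0.000676%.

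By direction of change, most genes with lower translation efficiency had more mRNA and fewer footprints. Of the 121 genes, 15 passed both separate tests with opposite signs. Over the 121 genes the median log2 change was 0.42 for mRNA and -0.79 for footprints. The mRNA change was above 0 for 115 of them and the footprint change below 0 for 119. As separate tests, 81 of the 121 rose in mRNA, where 4.5% of all genes did, and 40 fell in footprints, where 1.51% of all genes did. Of the mRNA calls 45 passed in every one of the 14 alternatives run for mRNA, and of the footprint calls 11 passed in all 14 run for footprints. The 40 footprint calls came to 16 without high-boron footprint library 2, 20 without library 3 and 17 without Ctrl footprint library 2. The mRNA calls came to between 56 and 79 when 1 RNA library was left out. Because a gene had to differ in the ratio to enter the 121, these counts describe the parts of the ratio and test nothing.

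In 116 of the 121 genes both high-boron footprint libraries lay below both Ctrl libraries, and 18.1% of all genes tested showed that order. In 109 both high-boron RNA libraries lay above both Ctrl libraries, against 24.6% of all genes. By the separate tests, 66 of the 121 changed in mRNA alone, 24 in footprints alone, 15 in both with opposite signs, 1 in both with the same sign and 15 in neither. The plot of footprint against mRNA changes shows the called genes as a band below the diagonal, mostly in the part with higher mRNA and lower footprints.

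**Figure D1:**
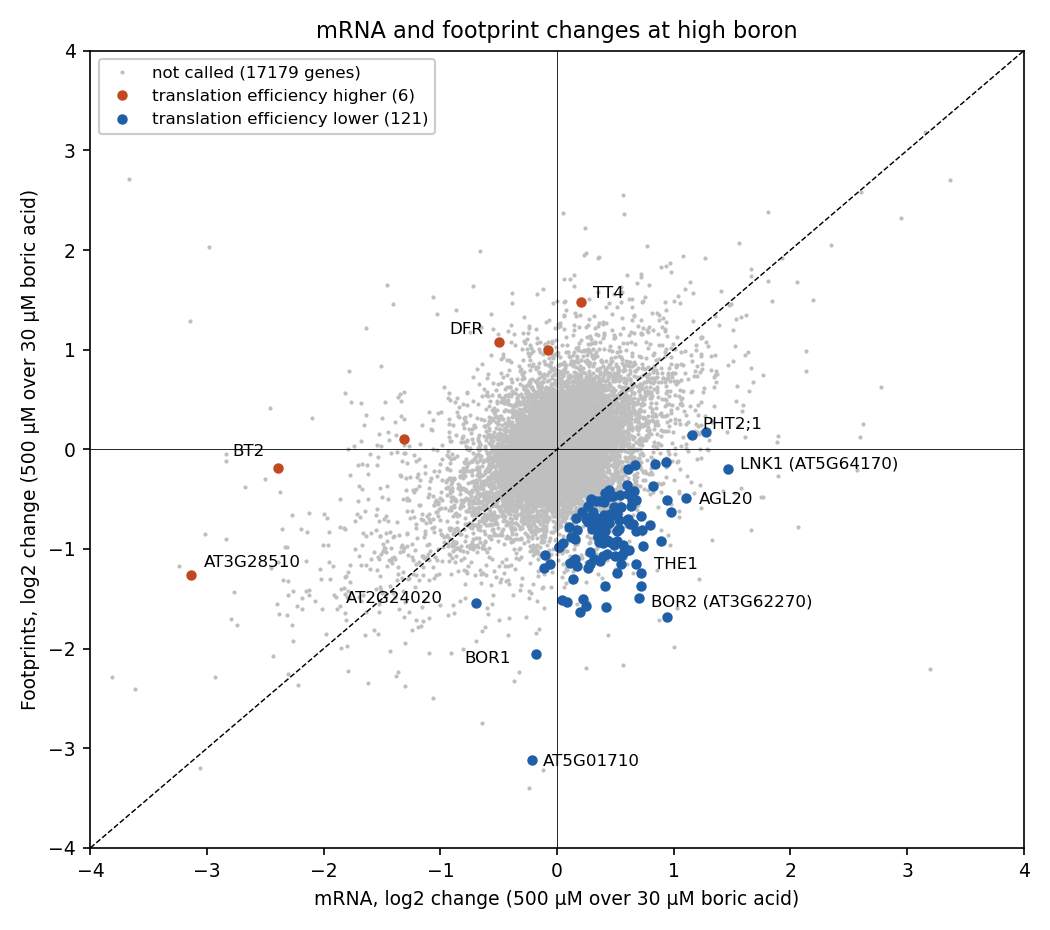
Each point is 1 gene tested, with its log2 change in mRNA (x axis) and in footprints (y axis), 500 µM over 30 µM boric acid. Genes with higher translation efficiency (6) and lower translation efficiency (121) are coloured, the diagonal marks no change of the ratio, and 7 genes lie outside the axes; 115 of the 121 lie right of 0 for mRNA and 119 below 0 for footprints.

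The boron exporter BOR1 (AT2G47160) differed in footprints alone. It had 3.13 and 2.89 footprint CPM (counts scaled to each library's TMM-adjusted total) at high boron, against 12.2 and 13.1 CPM in Ctrl. As counts, it had 42 and 21 footprints at high boron, against 149 and 89 in Ctrl. Its mRNA stood at 42.4 and 44.8 CPM at high boron, against 46.0 and 52.9 CPM in Ctrl. The footprint libraries did not overlap, while the mRNA of the groups lay close together. The footprint per mRNA ratio was 0.0690 at high boron and 0.256 in Ctrl, and translation efficiency fell by 1.87 ± 0.23 (SE, n = 2 libraries per group and assay, edgeR adjusted p = 0.000622). The low-boron libraries held 16.5 and 17.1 footprint CPM, which gave ratios of 0.331, 0.256 and 0.0690 from low to high boron. The difference between low boron and Ctrl did not pass (0.37 ± 0.19, adjusted p = 0.826).

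AT3G62270, for which RefSeq lists the name BOR2, had fewer counts. It had 32 and 9 footprint counts at high boron (2.38 and 1.24 CPM), against 69 and 35 in Ctrl (5.67 and 5.16 CPM). Its mRNA was at 11.4 and 14.2 CPM at high boron and at 7.02 and 8.80 CPM in Ctrl. Both assays separated the groups, in opposite directions, and the ratio was 0.142 at high boron against 0.684 in Ctrl. The separate tests passed narrowly, mRNA at 0.70 ± 0.20 (edgeR adjusted p = 0.0428) and footprints at -1.50 ± 0.35 (edgeR adjusted p = 0.0376). The mRNA call held in 7 of 14 alternatives and the footprint call in 7 of 13. The change in efficiency was -2.18 ± 0.41 (edgeR adjusted p = 0.0163). That call ended without Ctrl footprint library 2 (0.0899), high-boron footprint library 3 (0.0548), Ctrl RNA library 2 (0.0604) or high-boron RNA library 3 (0.0952). The exporters are related in sequence, and the sources used here do not say how reads shared by such genes were assigned.

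Of the 11 boron transport genes listed, 6 were tested, and BOR1 and BOR2 were the 2 that fell; the median change over the 6 was -0.31. NIP5;1 (AT4G10380), the boric acid channel with the AUG-stop, had 20 and 11 footprint counts at high boron and 62 and 31 in Ctrl. Its mRNA was at 5.44 and 5.02 CPM at high boron against 10.7 and 11.6 CPM in Ctrl, so the ratio moved less than the footprints, to 0.287 against 0.434 (-0.60 ± 0.35, adjusted p = 0.707). The channel NIP6;1 (AT1G80760), which moves boric acid within the shoot, had ratios of 0.932 and 0.936 (-0.01 ± 0.26, adjusted p = 0.996). AT3G06450 (0.06 ± 0.20, adjusted p = 0.968) and BOR5 (AT1G74810, 0.43 ± 0.64, adjusted p = 0.916) did not pass either, and BOR5 varied widely, with 70 and 10 footprint counts at high boron against 16 and 21 in Ctrl. The other 5 genes of the list, among them BOR4 and NIP7;1, had at most 5 counts in any library and were not tested.

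The other genes listed for an AUG-stop in the leader were not called. SKU5 (AT4G12420), a protein of directional root growth, had 208 and 195 footprint CPM at high boron against 338 and 371 CPM in Ctrl, and 218 and 212 mRNA CPM against 281 and 280 CPM. Both assays were lower in the high-boron libraries, and the efficiency change was -0.43 ± 0.17 (adjusted p = 0.474). ABS2 (AT2G36080), a transcription factor, showed 0.27 ± 0.30 (adjusted p = 0.886). With NIP5;1 this makes 0 of 3 by edgeR, and also 0 with DESeq2 and with limma voom, with 1 gene at an unadjusted p under 0.05.

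Among the 121 called genes the largest fall in translation efficiency belonged to AT5G01710, a gene for which the tables used here give no name. It had 27 and 9 footprint counts at high boron (2.01 and 1.24 CPM), against 171 and 108 in Ctrl (14.1 and 15.9 CPM). Its mRNA was at 57.3 and 55.7 CPM against 67.3 and 63.5 CPM. The ratio was 0.0288 at high boron and 0.229 in Ctrl, a change of -2.89 ± 0.26 (edgeR adjusted p = 2.24e-05). In the low-boron libraries it had 45.3 and 49.6 footprint CPM, with 69.7 and 75.5 mRNA CPM. Footprints on AT5G01710 were thus lower at each step up in boron supply, and its ratio was 0.653, 0.229 and 0.0288 from low to high boron. It is 1 of 2 genes that fell at high boron and rose at low boron, where its change was 1.52 ± 0.19 (edgeR adjusted p = 0.0045). The low-boron call ended without Ctrl footprint library 2 (0.0553) or low-boron RNA library 2 (0.112).

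AT3G53400, also without a name in these tables, was the other. It had 25 and 8 footprint counts at high boron against 49 and 41 in Ctrl, and 25.9 and 25.1 mRNA CPM against 23.4 and 21.0 CPM. The ratio was 0.618, 0.227 and 0.0581 from low to high boron. Unlike AT5G01710, its mRNA was far higher at low boron, at 282 and 281 CPM (log2 change against Ctrl 3.67, edgeR adjusted p = 6.44e-12). Low-boron footprints stood at 179 and 169 CPM, against 4.03 and 6.04 CPM in Ctrl. Its fall at high boron (-1.81 ± 0.32, edgeR adjusted p = 0.0105) ended without Ctrl RNA library 3 (0.0507) and in the fit without low-boron libraries (0.0569). Its rise at low boron (1.501 ± 0.23, adjusted p = 0.0278) did not pass in 9 of the 12 fits that left out 1 library: without any 1 of the 6 RNA libraries, without either low-boron footprint library, or without Ctrl footprint library 2, with adjusted p between 0.0683 and 0.368. It did not pass with limma voom either (0.0725).

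**Figure D2:**
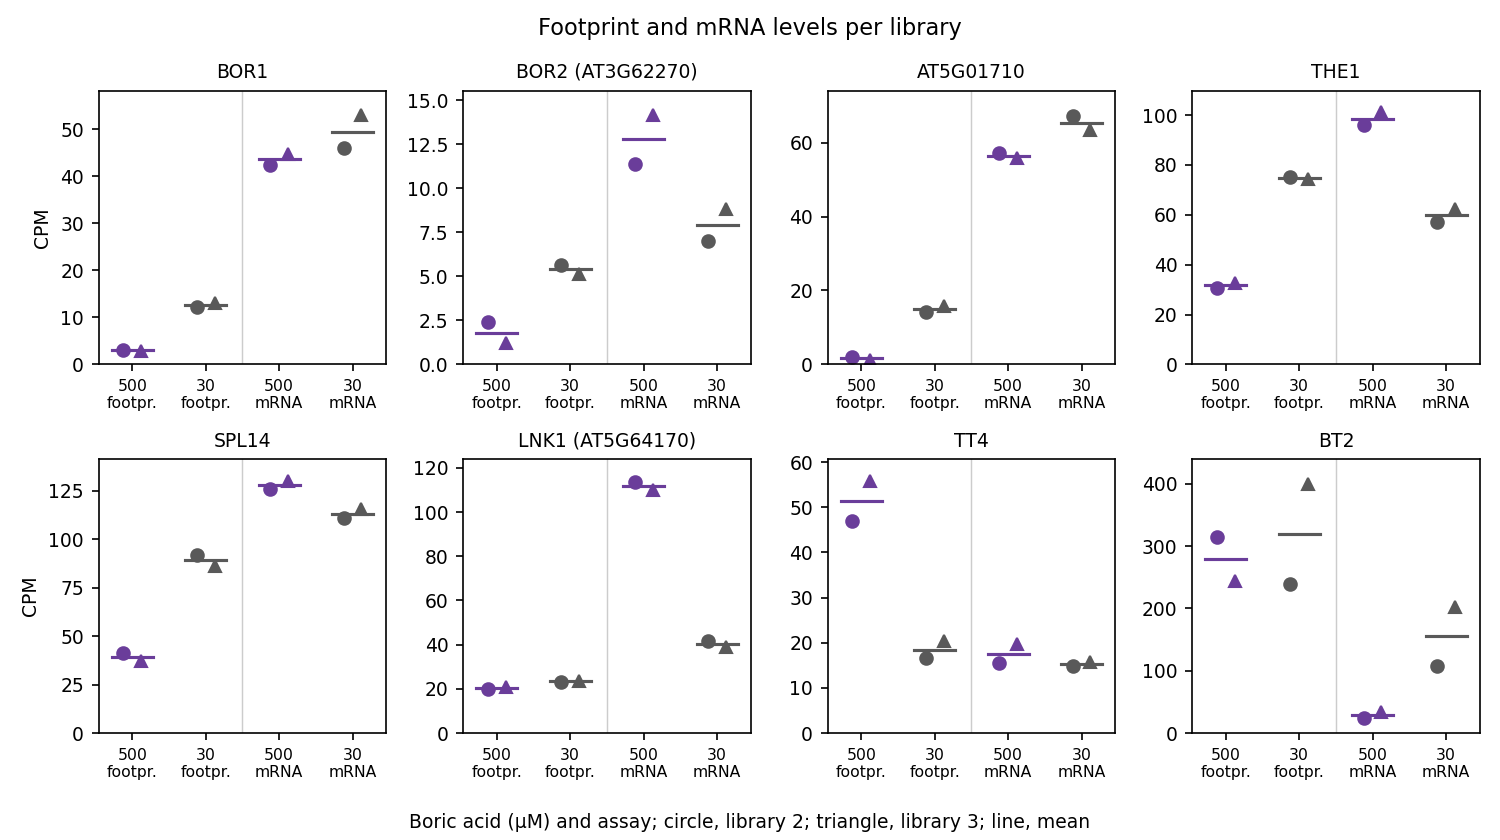
Footprint and mRNA levels in CPM (y axes, from 0) of 8 genes in every high-boron (500 µM) and Ctrl (30 µM) library (x axes); circles are library 2, triangles library 3, lines the means. BOR1, AT5G01710 and SPL14 differ mainly in footprints, THE1 and BOR2 in both assays in opposite directions, LNK1 mainly in mRNA; TT4 has higher footprints and BT2 lower mRNA at high boron.

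The falls at high boron were not matched at low boron. For the 121 genes the median change of low boron against Ctrl was 0.05, with 52 below 0. By edgeR 0 of them fell at low boron and 2 rose (AT5G01710 and AT3G53400), where 4 of all genes rose (0.0231%) and 0 fell (0%). DESeq2 also called 0 lower and 2 higher among the 121, limma voom 0 and 1, and 11 of them had an unadjusted p under 0.05 with edgeR. Both comparisons use the same Ctrl libraries, so their values are set side by side with no test of likeness. High boron against low boron, which shares the high-boron libraries, gave 104 of the 121 as lower, where 1.3% of all genes were. All 6 genes that rose against Ctrl were also higher than at low boron, where 0.324% of all genes were.

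**Figure D3:**
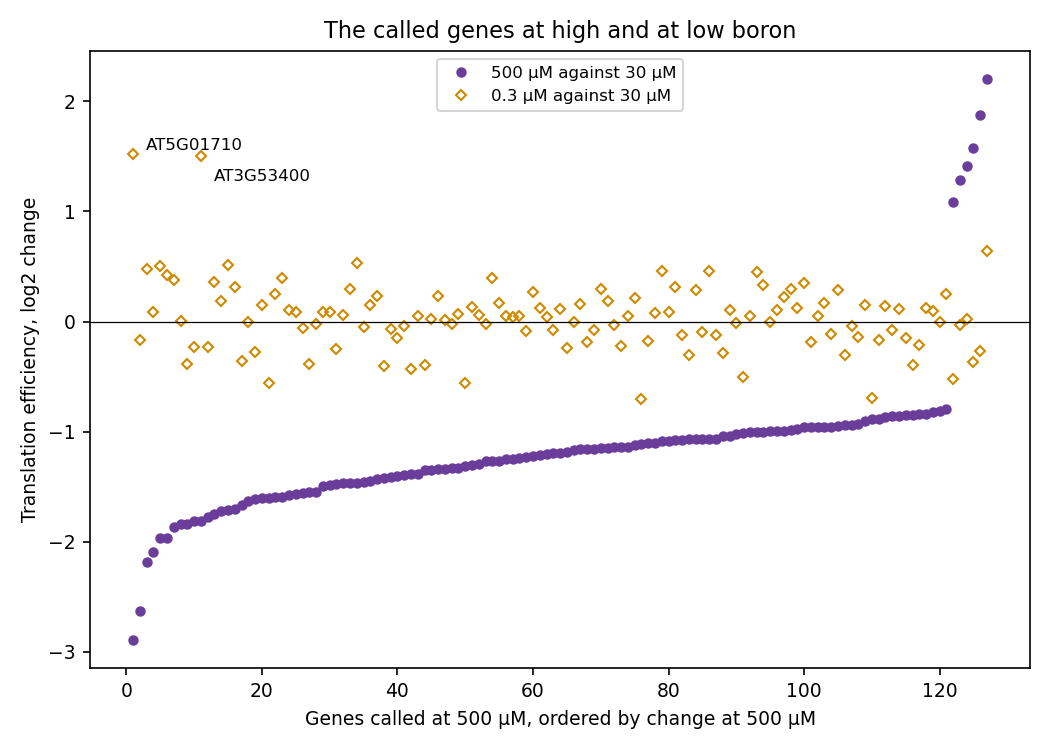
Log2 changes in translation efficiency (y axis) of the 127 called genes, ordered by their change at 500 µM (x axis), for 500 µM against 30 µM (filled) and 0.3 µM against 30 µM boric acid (open); both comparisons use the 30 µM libraries. The open points scatter around 0, with AT5G01710 (1.52) and AT3G53400 (1.501) far above it.

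Among the 121 genes, 31 passed the test in every alternative that tested them, including all 12 fits that left out 1 library. Their changes ran from -2.89 to -1.16, with a median of -1.54. The median ratio of these 31 was 0.166 at high boron and 0.509 in Ctrl. Their median mRNA change was 0.55 and their median footprint change -0.93. They include BOR1 and AT5G01710, which had too few counts to be tested under the strict filter, a mean count of at least 50. Of the 121, 28 were called in all 22 alternatives. The genes described in the paragraphs on kinases, transcription factors, hormone receptors and vesicle traffic belong to the 31 unless a lost call is given. The grouping by role was made after the values were seen and carries no test.

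Kinases were among the 31. THESEUS1 (THE1, AT5G54380), a receptor kinase of the plasma membrane that monitors the cell wall, had 30.6 and 32.8 footprint CPM at high boron, against 75.0 and 74.3 CPM in Ctrl. Its mRNA moved the other way, with 96.0 and 101 CPM at high boron against 57.0 and 62.4 CPM in Ctrl. The groups were far apart in both assays, and each separate test passed in every alternative run. Translation efficiency of THE1 fell by 1.96 ± 0.17 (edgeR adjusted p = 2.24e-05), made up of -1.24 ± 0.17 in footprints (adjusted p = 0.00112) and 0.72 ± 0.09 in mRNA (adjusted p = 0.00012). AT5G58950, named by ID only, showed the same combination, with 16.5 and 12.9 footprint CPM against 40.8 and 36.1 CPM, and 215 and 206 mRNA CPM against 130 and 125 CPM. Its change was -2.09 ± 0.19 (edgeR adjusted p = 2.29e-05). BRI1 (AT4G39400), the brassinosteroid receptor, fell by 0.79 ± 0.17, the smallest called fall, and its call held in 13 of 22 alternatives, ending without high-boron footprint library 2, high-boron RNA library 2 or 3, Ctrl RNA library 2 or 3 or low-boron RNA library 2 or 3 (adjusted p from 0.0593 to 0.172).

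Casein kinase I-like proteins are serine/threonine kinases, and 6 of the 13 family members tested fell in efficiency, the same 6 being called higher in mRNA. Of all genes tested, 0.699% fell in efficiency and 4.5% rose in mRNA. The family was looked up by its RefSeq names after ckl7 had been seen, so its count is a description. Over the 13 the median change was -0.38, beside 0.03 over all genes tested. In ckl7 (AT5G44100) footprints were at 13.6 and 15.8 CPM at high boron against 32.3 and 32.4 CPM in Ctrl, and mRNA at 101 and 87.7 CPM against 67.5 and 61.0 CPM (efficiency -1.70 ± 0.20, edgeR adjusted p = 0.000453). In ckl5 (AT2G19470) footprints were at 9.46 and 9.91 CPM against 19.0 and 23.4 CPM (efficiency -1.49 ± 0.21, edgeR adjusted p = 0.0017). Both genes had non-overlapping footprint libraries. Their separate footprint calls both ended without high-boron footprint library 2 (0.0617 and 0.0819), and that of ckl5 also without Ctrl footprint library 3 (0.0501).

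The other 4 called members were ADK1 (AT1G03930, -1.57 ± 0.27), CKL6 (AT4G28540, -1.23 ± 0.22), ckl12 (AT5G57015, -1.19 ± 0.21) and ckl8 (AT5G43320, -0.82 ± 0.19, edgeR adjusted p = 0.0485). The efficiency call of ADK1 ended without Ctrl footprint library 2 (0.0899) or Ctrl RNA library 3 (0.0533). That of CKL6 ended without Ctrl RNA library 3 (0.0507) or high-boron RNA library 2 (0.0557), and that of ckl12 without Ctrl RNA library 3 (0.0747) or high-boron RNA library 2 (0.0557). That of ckl8 held in 9 of 22 alternatives and ended without high-boron footprint library 3, Ctrl footprint library 3, low-boron footprint library 2 or 3, high-boron RNA library 2 or 3, Ctrl RNA library 2 or 3 or low-boron RNA library 2 or 3 (adjusted p from 0.0612 to 0.245). The mRNA call ended without high-boron RNA library 2 for ckl5 (0.237), ADK1 (0.0661) and CKL6 (0.0535), and for ckl5 also without Ctrl RNA library 3 (0.0892) or low-boron RNA library 2 (0.0624) or 3 (0.0622). Of the members not called, ckl10 (AT3G23340) was the lowest at -0.38 ± 0.32 and CKI1 (AT4G14340) the highest at 0.24 ± 0.22. Reads shared between such related genes could be split by the counting, which leaves the value of a single member uncertain.

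**Figure D4:**
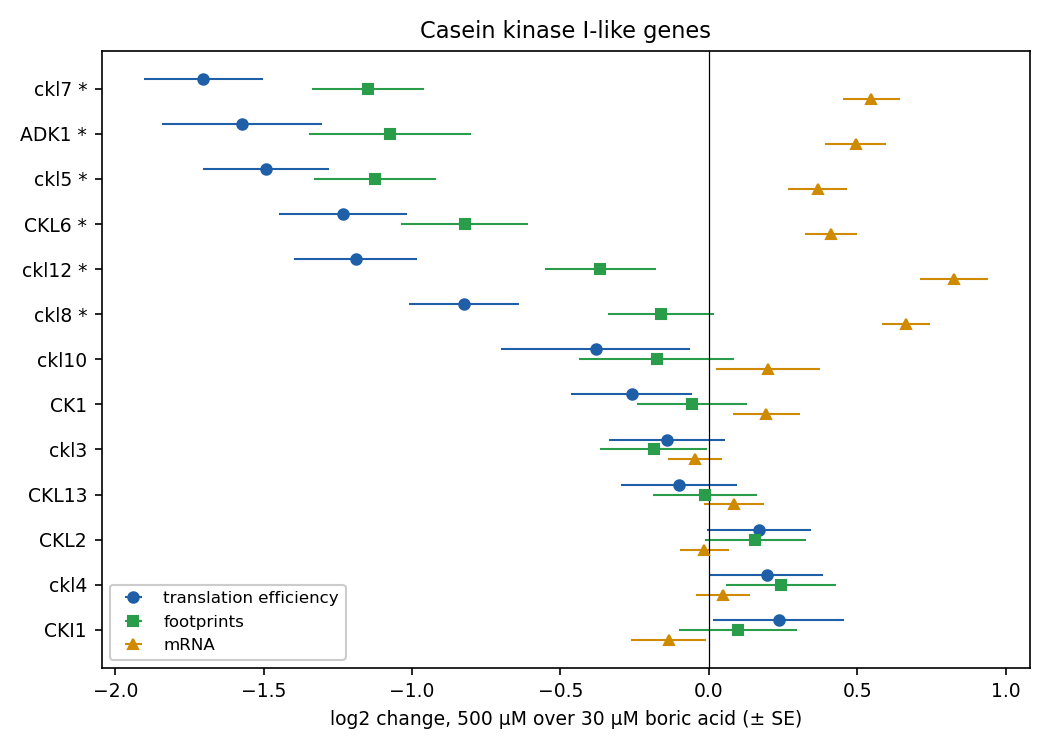
Log2 changes (x axis, ± SE, 500 µM over 30 µM boric acid) in translation efficiency, footprints and mRNA of the 13 casein kinase I-like genes tested (y axis); an asterisk marks a called change in efficiency. The 6 called genes have efficiency changes from -1.70 to -0.82 and mRNA changes above 0, and the other 7 lie between -0.38 and 0.24 in efficiency.

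Several transcription factors were among the 31. SOC1 (listed as AGL20, AT2G45660), a MADS-box factor that promotes flowering, had 65.2 and 64.1 mRNA CPM at high boron against 33.5 and 26.3 CPM in Ctrl, yet 27.1 and 27.1 footprint CPM against 41.8 and 33.9 CPM. Its mRNA rose by 1.11 ± 0.11 (edgeR adjusted p = 2.05e-05) and its efficiency fell by 1.60 ± 0.20 (adjusted p = 0.000757). The footprint change of SOC1, -0.49 ± 0.18, did not pass by itself (edgeR adjusted p = 0.259). RAP2.7 (AT2G28550), an AP2-type repressor of flowering, had 121 and 101 mRNA CPM against 66.3 and 52.4 CPM and an efficiency change of -1.83 ± 0.24 (edgeR adjusted p = 0.000913). Both a promoter and a repressor of flowering thus carried fewer footprints per mRNA. TCP2 (AT4G18390), a factor that limits cell division in growing leaves, had mRNA at 91.5 and 83.4 CPM against 44.3 and 44.5 CPM (efficiency -1.63 ± 0.23, edgeR adjusted p = 0.00144). TSO1 (AT3G22780), a nuclear protein needed for meristem and flower organisation, changed by -1.56 ± 0.20 (edgeR adjusted p = 0.000874).

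SPL14 (AT1G20980), a factor of the SQUAMOSA promoter-binding family, differed from these in its parts. It had 41.4 and 37.3 footprint CPM at high boron against 91.6 and 86.4 CPM in Ctrl, and 126 and 130 mRNA CPM against 111 and 115 CPM. The footprint fall of 1.18 ± 0.17 (edgeR adjusted p = 0.00182) made up most of the efficiency change of -1.35 ± 0.17 (adjusted p = 0.000757). LNK1 (AT5G64170), a component of the circadian clock, was the opposite case. Its mRNA was at 113 and 110 CPM at high boron against 41.9 and 38.9 CPM in Ctrl, and its footprints at 20.0 and 20.9 CPM against 23.1 and 23.7 CPM. The mRNA rose by 1.46 ± 0.09 (edgeR adjusted p = 2.97e-07), the footprint change was -0.20 ± 0.18 (adjusted p = 0.802), and efficiency fell by 1.66 ± 0.17 (adjusted p = 0.000136).

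Hormone receptors and immune signalling supplied further members. PYR1 (AT4G17870), a receptor of abscisic acid, had 19.2 and 22.2 footprint CPM at high boron against 32.0 and 33.3 CPM in Ctrl, and 89.7 and 79.6 mRNA CPM against 51.9 and 50.4 CPM. The footprint change, -0.66 ± 0.18, did not pass by itself (edgeR adjusted p = 0.0858). Efficiency of PYR1 changed by -1.39 ± 0.19 (edgeR adjusted p = 0.000984). It was the 1 called of 9 PYR and PYL receptors tested, the others lying between -0.28 and 0.26. NPR3 (AT5G45110), a receptor of salicylic acid, had 9.02 and 4.54 footprint CPM against 20.0 and 21.1 CPM, with mRNA at 40.8 and 40.7 CPM against 37.0 and 39.7 CPM. The efficiency change of NPR3 (-1.60 ± 0.27, edgeR adjusted p = 0.00847) thus lay in footprints. EIN2 (AT5G03280), a membrane protein of ethylene signalling, changed by -0.996 ± 0.19 (edgeR adjusted p = 0.017) with neither assay called by itself. That call ended without Ctrl footprint library 2 (0.0656), Ctrl RNA library 2 (0.0773) or 3 (0.0654), or high-boron RNA library 2 (0.0651) or 3 (0.0957), and in the fit without low-boron libraries (0.0573).

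Parts of the secretory and sorting machinery were also among the 31. EXO70E2 (AT5G61010), of a family of exocyst subunits that tether secretory vesicles, had 7.68 and 5.78 footprint CPM at high boron against 16.4 and 19.5 CPM in Ctrl (efficiency -1.77 ± 0.24, edgeR adjusted p = 0.00136). Of 13 EXO70 genes tested, EXO70E1 (AT3G29400, -1.21 ± 0.23) was called with it, and that call ended without high-boron footprint library 3 (0.0541), Ctrl RNA library 2 (0.0561), Ctrl RNA library 3 (0.106), high-boron RNA library 2 (0.063) or high-boron RNA library 3 (0.104). The median of the 13 was 0.12. VPS22 (AT4G27040), a subunit of the ESCRT-II complex of endosomal sorting, had 9.84 and 9.63 footprint CPM against 18.0 and 15.8 CPM (efficiency -1.34 ± 0.22, edgeR adjusted p = 0.00612). By the separate tests VPS22 was called higher in mRNA and was not called in footprints. XBAT35 (AT3G23280), a ubiquitin ligase, had 58.6 and 62.9 footprint CPM against 102 and 130 CPM (efficiency -1.29 ± 0.19, edgeR adjusted p = 0.0019). SNF4 (AT1G09020), a subunit of the energy-sensing kinase SnRK1, had mRNA at 68.6 and 66.0 CPM against 40.5 and 45.4 CPM and footprints at 29.1 and 31.1 CPM against 41.2 and 44.8 CPM (efficiency -1.16 ± 0.18, edgeR adjusted p = 0.00361). For SNF4 too the mRNA test passed and the footprint test did not.

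The other named members of the 31 were SHA1 (AT5G63780, -1.75 ± 0.19), RIP2 (AT2G37080, -1.41 ± 0.20), a partner of ROP GTPases, ENP (AT4G31820, -1.59 ± 0.25), a protein of auxin-dependent organ formation, and NPGR1 (AT1G27460, -1.19 ± 0.18). A further 9 are known by ID only in the tables used here, among them AT3G28690 (-1.72 ± 0.21), AT3G23310 (-1.54 ± 0.20) and AT1G70160 (-1.25 ± 0.17). Of these, AT1G70160 differed mainly in footprints, at 43.7 and 36.6 CPM at high boron against 84.4 and 88.7 CPM in Ctrl, with mRNA at 140 and 146 CPM against 126 and 131 CPM.

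Less secure calls included 5 more of the 15 largest falls among genes with a mean log2 CPM of at least 1 in both assays. AT2G41980 fell by 2.63 ± 0.46 on 25 and 6 footprint counts at high boron against 68 and 24 in Ctrl (edgeR adjusted p = 0.0105), and that call ended without Ctrl footprint library 2 (0.152) or Ctrl RNA library 3 (0.0507). MCA2 (AT2G17780), a membrane protein of calcium uptake, fell by 1.71 ± 0.31 on 40 and 12 footprint counts against 91 and 42, and lost the call without Ctrl footprint library 2 (0.081), Ctrl RNA library 3 (0.0507) or high-boron RNA library 3 (0.0618). AT4G35270, for which RefSeq lists the name NLP2, changed by -1.84 ± 0.34 on 22 and 14 footprint counts against 73 and 29 and lost it without Ctrl footprint library 2 (0.148), high-boron footprint library 2 (0.11), Ctrl RNA library 3 (0.0747), high-boron RNA library 2 (0.0585) or high-boron RNA library 3 (0.0538). AT1G12460 changed by -1.81 ± 0.33 on 37 and 10 footprint counts against 62 and 31 and lost it without Ctrl footprint library 2 (0.0994), Ctrl RNA library 3 (0.0724) or high-boron RNA library 3 (0.0664). ZW18 (AT1G58350) changed by -1.97 ± 0.41 on 20 and 11 footprint counts against 35 and 45, and its call held in 10 of 21 alternatives, ending without high-boron footprint library 2 or 3, Ctrl footprint library 3, high-boron RNA library 2 or 3, Ctrl RNA library 2 or 3 or low-boron RNA library 2 or 3 (adjusted p from 0.0535 to 0.157). All 5 had few footprint counts in both groups.

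AT2G24020 was the 1 gene of the 121 with lower mRNA by its own test. It had 49.1 and 58.1 footprint CPM at high boron against 146 and 167 CPM in Ctrl, and 77.0 and 80.4 mRNA CPM against 127 and 128 CPM. Footprints fell by 1.55 ± 0.18 (edgeR adjusted p = 0.000398) and mRNA by 0.70 ± 0.08 (adjusted p = 8.7e-05), and both calls passed in every alternative run. The difference, an efficiency change of -0.85 ± 0.18 (edgeR adjusted p = 0.0314), was called in 14 of 22 alternatives and ended without high-boron footprint library 2, high-boron RNA library 2 or 3, Ctrl RNA library 2 or 3 or low-boron RNA library 2 or 3 (adjusted p from 0.0717 to 0.167).

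Translation efficiency rose for 6 genes at high boron, and 0 of these calls passed in every alternative. In 3 of them the separate test that passed was that of footprints, which were higher. TT4 (AT5G13930), the chalcone synthase that opens the flavonoid pathway, had 46.9 and 55.7 footprint CPM at high boron against 16.6 and 20.3 CPM in Ctrl, and 15.4 and 19.6 mRNA CPM against 14.8 and 15.8 CPM. Its footprint rise of 1.48 ± 0.19 (edgeR adjusted p = 0.000718) passed in every alternative run, and the ratio was 2.93 at high boron against 1.21 in Ctrl. The efficiency rise of 1.28 ± 0.26 (adjusted p = 0.0278) ended without Ctrl footprint library 2 (0.148), high-boron footprint library 3 (0.0888), Ctrl RNA library 2 (0.0668) or 3 (0.157), or high-boron RNA library 2 (0.191) or 3 (0.0574), and in the fit without low-boron libraries (0.0525).

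DFR (AT5G42800), the dihydroflavonol reductase that leads to anthocyanins, had 19.2 and 16.1 footprint CPM at high boron against 7.97 and 8.99 CPM in Ctrl, with mRNA at 4.28 and 4.80 CPM against 6.01 and 6.83 CPM. Footprints were higher in both libraries while mRNA was not, and efficiency rose by 1.58 ± 0.32 (edgeR adjusted p = 0.0278). That call held in 12 of 21 alternatives and ended without high-boron footprint library 2, Ctrl footprint library 2, high-boron RNA library 2 or 3, Ctrl RNA library 2 or 3 or low-boron RNA library 2 or 3 (adjusted p from 0.0535 to 0.177). Its footprint call ended without any 1 of the 4 footprint libraries of the comparison (adjusted p from 0.0513 to 0.258). Of 9 anthocyanin genes tested these 2 rose, where 0.0347% of all genes did. An unadjusted p under 0.05 was found for 5 of the 9 and for 1429 of all 17306 genes. The median of the 9 was 0.98, beside 0.03 over all genes. LDOX (AT4G22880, 0.98 ± 0.34, adjusted p = 0.345), PAP1 (AT1G56650, 1.65 ± 0.53, 0.252) and UF3GT (AT5G54060, 1.66 ± 0.53, 0.244) did not pass after adjustment. The flavonoid enzymes F3H (AT3G51240, -0.25 ± 0.43), FLS1 (AT5G08640, -0.06 ± 0.31) and TT5 (AT3G55120, 0.09 ± 0.27) did not either. The other footprint case was AT3G11120, at 39.3 and 40.0 footprint CPM at high boron against 16.6 and 23.6 CPM in Ctrl, with mRNA at 32.3 and 31.3 CPM against 32.3 and 34.7 CPM (efficiency 1.08 ± 0.23, edgeR adjusted p = 0.0314, called in 12 of 22 alternatives). AT3G11120 lost its call without high-boron footprint library 2 or 3, Ctrl footprint library 2, high-boron RNA library 2 or 3, Ctrl RNA library 2 or 3 or low-boron RNA library 2 or 3 (adjusted p from 0.0653 to 0.177).

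In the other 3 genes that rose, mRNA was lower at high boron. BT2 (AT3G48360), a BTB and TAZ domain protein, had 24.9 and 33.9 mRNA CPM at high boron against 108 and 202 CPM in Ctrl, and 316 and 243 footprint CPM against 239 and 400 CPM. Its mRNA fell by 2.39 ± 0.22 (edgeR adjusted p = 1.29e-05) while the footprint libraries of the groups overlapped, and the ratio was 9.51 against 2.06. The efficiency rise of 2.203 ± 0.38 (adjusted p = 0.0101), the largest of the 6, ended without Ctrl RNA library 3 (0.0537) or high-boron RNA library 2 (0.0765). AT3G28510 fell in both assays, by 3.14 ± 0.29 in mRNA and by 1.27 ± 0.22 in footprints, the footprint call ending without high-boron footprint library 2 (0.0814). It had few mRNA counts, 10 and 9 at high boron against 76 and 100 in Ctrl. Its efficiency change was 1.87 ± 0.39 (edgeR adjusted p = 0.0298, called in 12 of 21 alternatives). AT3G28510 lost its call without high-boron footprint library 3, Ctrl footprint library 2, high-boron RNA library 2 or 3, Ctrl RNA library 3 or low-boron RNA library 2 or 3 (adjusted p from 0.0535 to 0.264). AT3G26440 had 2.98 and 3.27 mRNA CPM against 7.57 and 7.99 CPM and 9.46 and 9.77 footprint CPM against 8.30 and 9.73 CPM (efficiency 1.41 ± 0.30, edgeR adjusted p = 0.0358, called in 10 of 21 alternatives). AT3G26440 lost its call without high-boron footprint library 2 or 3, Ctrl footprint library 2, high-boron RNA library 2 or 3, Ctrl RNA library 2 or 3 or low-boron RNA library 2 or 3 (adjusted p from 0.0672 to 0.206).

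Without Ctrl footprint library 3 the number of genes that rose was 35, and without Ctrl RNA library 2 it was 23. Without Ctrl footprint library 2, and without Ctrl RNA library 3, it was 1. It was 2 without either low-boron RNA library and without high-boron RNA library 3, and 4 without high-boron footprint library 2 and without high-boron RNA library 2. DESeq2 gave 14, and the fit without low-boron libraries gave 1.

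The 121 genes with lower efficiency also had few footprints per mRNA in the low-boron libraries. Those libraries enter the comparison of high boron with Ctrl through the estimate of the spread, the scaling and the choice of genes tested. The median ratio of the 121 genes at low boron was 0.452, against 0.721 over all genes tested. Their median levels there were higher in both assays, more so for mRNA. Footprints stood at 22.1 CPM against 15.3 CPM over all genes, and mRNA at 45.8 CPM against 23.7 CPM. Whether the ratio or the mRNA level goes with the calls was not tested. The footprint per mRNA ratio was under 1 for 114 of the 121 (94.2%), where 71.8% of all genes were, and 99 of the 121 lay under the median of all genes. With all genes split into 5 equal groups by this ratio, from the lowest to the highest, 52, 31, 21, 12 and 5 genes had lower efficiency at high boron, which is 1.502%, 0.896%, 0.607%, 0.347% and 0.144% of each group. The median efficiency change of all genes was -0.02 in the lowest group and 0.08 in the highest. Of the 6 genes that rose, 4 had ratios in the highest group. Ratios are of CPM within 1 gene, whose length cancels.

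Calls were also unequal over the mRNA counts. With genes split into 5 equal groups by mean mRNA count in the low-boron libraries, from low to high, 0, 7, 25, 47 and 42 genes had lower efficiency. At this depth 280 of the 374 genes at -1 or lower on the log2 scale were not called, and 301 of the 307 at 1 or higher.

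Genes listed as controlled by conserved upstream open reading frames, short reading frames in the 5′ leader, gave 2 lower and 0 higher of 24 tested. Of all genes 0.699% were lower. An unadjusted p under 0.05 was found for 3 of the 24 and for 1429 of all 17306 genes. The median efficiency change of the 24 was -0.17, beside medians of 0.33 for mRNA and 0.24 for footprints. By its own test mRNA rose in 11 of them, where 4.5% of all genes did, and footprints fell in 1. BZIP53 (AT3G62420), a bZIP factor whose leader responds to sucrose, had 88 and 28 footprint counts at high boron against 237 and 72 in Ctrl, with mRNA at 42.5 and 39.8 CPM against 42.7 and 36.7 CPM. Its change was -1.56 ± 0.33 (edgeR adjusted p = 0.0347), called in 11 of 22 alternatives. That call ended without high-boron footprint library 3, Ctrl footprint library 2, low-boron footprint library 2, high-boron RNA library 2 or 3, Ctrl RNA library 2 or 3 or low-boron RNA library 2 or 3 (adjusted p from 0.0501 to 0.295). ATH1 (AT4G32980), a homeobox factor, changed by -1.35 ± 0.27 (edgeR adjusted p = 0.0248), called in 11 of 21 alternatives. That call ended without high-boron footprint library 2 or 3, Ctrl footprint library 2, high-boron RNA library 2, Ctrl RNA library 2 or 3 or low-boron RNA library 2 or 3 (adjusted p from 0.0513 to 0.206). The relatives bZIP1 (AT5G49450, -0.50 ± 0.28), bZIP2 (AT2G18160, -0.40 ± 0.23) and GBF6 (AT4G34590, 0.23 ± 0.37), also with sucrose-responsive leaders, were not called, and neither was SAC51 (AT5G64340, 0.62 ± 0.35, adjusted p = 0.693). limma voom called 0 of the 24 and DESeq2 the same number as edgeR.

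Members of the translation machinery itself were not called in any list, where 0.734% of all genes tested were called. At that share lists of this size would hold few calls. Of all 17306 genes, 1429 had an unadjusted p under 0.05. Of 29 initiation factors 0 passed (2 at an unadjusted p under 0.05, median change 0.19), of 12 elongation factors 0 (0 unadjusted, 0.10), of 12 release and surveillance factors 0 (1 unadjusted, 0.06) and of 36 cytosolic ribosomal proteins 0 (1 unadjusted, 0.18), all by edgeR. DESeq2 and limma voom also called 0 in each of these 4 lists. The changes of 9 of the 29 initiation factors and of 7 of the 36 ribosomal proteins were below 0, as were those of 7979 of all genes tested.

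Among lists of responses, jasmonate genes had a median of 0.34, with 0 of 23 called, 5 at an unadjusted p under 0.05 and 3 below 0. Of all 17306 genes 0.734% were called, and 1429 had an unadjusted p under 0.05. Nitrate and sulfate genes had a median of 0.32, with 0 of 10 called, 3 unadjusted and 0 below 0. For the nuclear photosynthesis genes edgeR called 0 of 38 (3 unadjusted, median -0.07) and DESeq2 1, and for the 34 chloroplast-encoded genes tested it called 0 (1 unadjusted, median 0.26). The oxidative stress genes had 0 of 15 called by edgeR (1 unadjusted, median 0.04) and 1 higher with DESeq2. limma voom called 0 in all 5 of these lists, and DESeq2 0 in the jasmonate, nitrate and sulfate, and chloroplast-encoded lists.

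Of 19 salicylate and defence genes, NPR3 was the 1 called, and the median efficiency change was -0.01, beside medians of -0.80 for mRNA and -0.89 for footprints. WRKY54 (AT2G40750), a defence transcription factor, stood at -2.35 ± 0.22 in mRNA and -1.31 ± 0.18 in footprints, with an efficiency change of 1.04 ± 0.29 (adjusted p = 0.162). SARD1 (AT1G73805), which drives salicylate synthesis, stood at -2.04 ± 0.14 in mRNA and -1.205 ± 0.19 in footprints (efficiency 0.82 ± 0.24, adjusted p = 0.175).

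The remaining lists gave 0 calls by edgeR, DESeq2 and limma voom, where edgeR called 0.734% of all genes tested. Their medians were 0.14 for 14 unfolded protein response genes (0 at an unadjusted p under 0.05), 0.16 for 15 pectin and rhamnogalacturonan II genes (1), 0.16 for 13 wall loosening genes (0), -0.02 for 13 abscisic acid and cold genes (1), 0.06 for 8 DNA damage genes (2), -0.37 for 5 heat shock genes (2) and -0.11 for 11 circadian clock genes (2). The clock list does not hold LNK1. Of 8 root markers 1 had enough counts, and of 4 floral markers 1, and both gave 0 calls and 0 at an unadjusted p under 0.05. Of the mitochondria-encoded genes 0 were tested. In the plot by gene list, the called genes of the anthocyanin list lie within the range of its uncalled members.

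**Figure D5:**
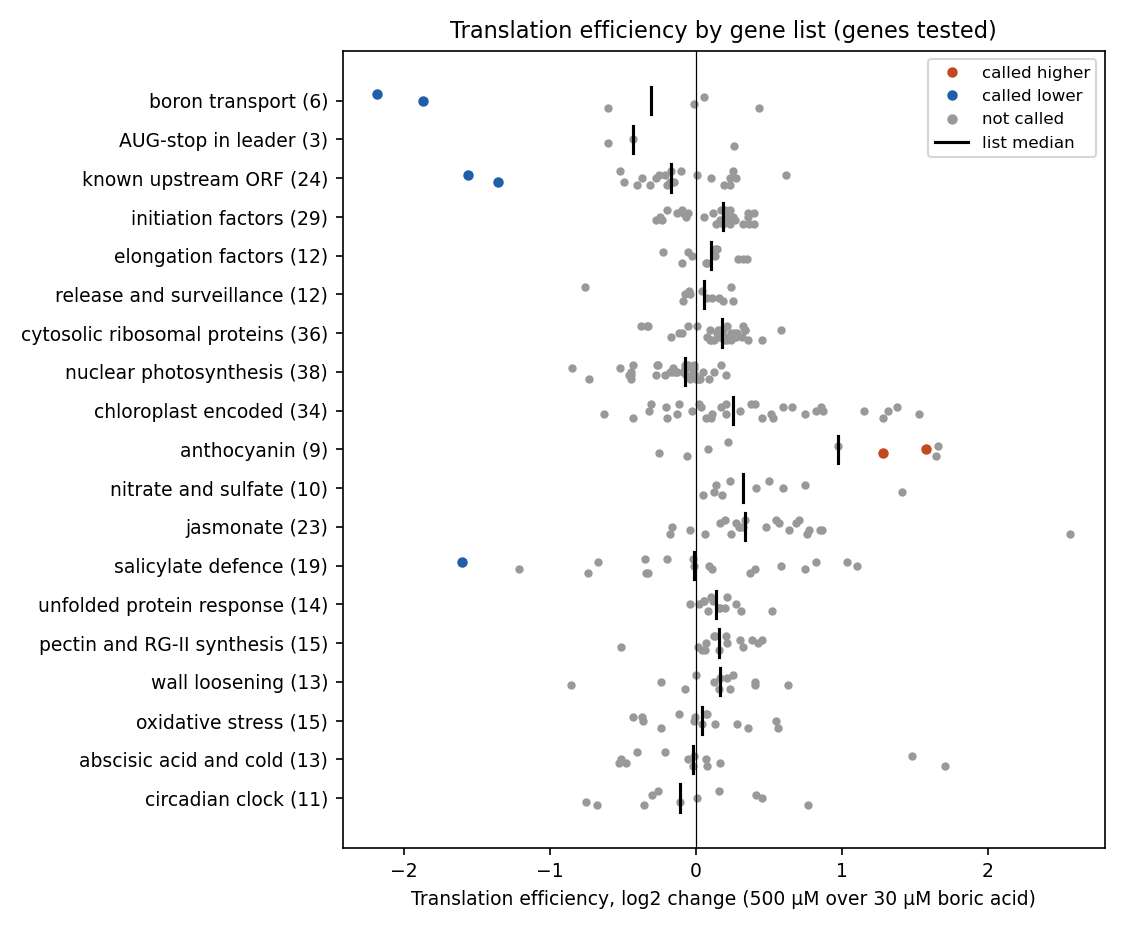
Log2 change in translation efficiency (x axis, 500 µM over 30 µM boric acid) of every tested gene of 19 gene lists (y axis, number tested in brackets), with called genes coloured and the list median as a bar. The list medians run from -0.43 (3 AUG-stop genes) to 0.98 (9 anthocyanin genes, with 2 called higher).

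Of other families looked up by RefSeq name after a member was seen, TCP factors had 2 of 18 lower and 8 at an unadjusted p under 0.05, with a median of -0.31. Of all 17306 genes 0.699% were lower, and 1429 had an unadjusted p under 0.05. TCP10 (AT2G31070), like TCP2 a regulator of leaf growth, had mRNA at 73.6 and 56.0 CPM at high boron against 36.9 and 30.7 CPM in Ctrl and an efficiency change of -1.07 ± 0.24 (edgeR adjusted p = 0.0465, called in 10 of 22 alternatives). TCP10 lost its call without high-boron footprint library 2 or 3, Ctrl footprint library 2, low-boron footprint library 2 or 3, high-boron RNA library 2, Ctrl RNA library 2 or 3 or low-boron RNA library 2 or 3 (adjusted p from 0.0582 to 0.274). TCP24 (AT1G30210, -0.79 ± 0.23, adjusted p = 0.186) and TCP3 (AT1G53230, -0.70 ± 0.33, 0.598) did not pass, and TCP4 (AT3G15030) stood at 0.07 ± 0.33. The GTE bromodomain family had 2 of 7 lower, with a median of -0.18. GTE7 (AT5G65630) changed by -1.08 ± 0.21 (edgeR adjusted p = 0.0184, called in 15 of 21 alternatives) and lost the call without high-boron footprint library 2, high-boron RNA library 2 or 3 or Ctrl RNA library 3 (adjusted p from 0.0618 to 0.0929). GTE8 (AT3G27260) changed by -0.94 ± 0.18 (edgeR adjusted p = 0.019, called in 16 of 22 alternatives) and lost it without high-boron footprint library 2, high-boron RNA library 2 or 3 or Ctrl RNA library 2 or 3 (adjusted p from 0.0571 to 0.112).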

How the data were processed

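Ribosome footprints and mRNA were measured in the same 3 boron groups. The deposited tables hold whole-number counts per gene, made by the authors; the submitters' processing notes name Bowtie2 and SAMtools. Versions, settings, genome build and annotation are not given in the sources used here. Table columns numbered 2 and 3 were matched to groups by name; the numbers differ from the replicate numbers in the titles and only name libraries. Labels call the replicates biological.

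Counts were scaled by TMM within each assay and fitted with edgeR 4.0.16 (R 4.3.3, filterByExpr in both assays, quasi-likelihood test) over 12 libraries in 1 model. Translation efficiency is the interaction, footprints high boron minus Ctrl less mRNA high boron minus Ctrl; footprints and mRNA were also fitted apart. SE is the absolute log2 change over the square root of F. CPM are edgeR values, and ratios are mean footprint CPM over mean mRNA CPM, also where genes were ranked by ratio. Every p printed is from edgeR unless another tool is named. Depth is the total count per library, and with 2 libraries per group each estimate of spread borrows from all genes. Alternatives were DESeq2 1.42.0, limma voom 3.58.1, other scalings and filters, blocks by library number, fits without the low-boron libraries, and each library left out in turn, the lone library then assumed to vary like the other groups. Their effects follow in the closing section. Figures were drawn with matplotlib 3.10.9, and the model was tested on simulated data.

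Gene symbols came from RefSeq (27445 of 27655 IDs matched); no sequence was used. Genes were named by rule: the 15 largest falls and rises (for called genes averaging a log2 CPM of at least 1 in each assay), all boron transport and AUG-stop genes, up to 3 called genes of each other list, and up to 4 of each class by mRNA and footprint call. Other genes named (further members of the 31, of lists and of families, and BRI1) were chosen after their values were seen. The genes, lists and groupings were chosen with earlier results of these data known, and families were looked up after a member was seen.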

Additional observations from a re-analysis of the deposited data

How the results depend on the processing

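Of 949 values of the named genes under alternatives, 792 kept direction and side of the threshold, 149 kept direction and lost the call, and 8 changed sign, all of them uncalled genes. BOR5 turned to -0.18 without Ctrl footprint library 2, -0.96 without high-boron footprint library 2 and -0.08 without Ctrl RNA library 2, with a range of -0.96 to 1.04 over single libraries left out. AT3G06450 turned to -0.15 without Ctrl footprint library 2 and -0.02 without high-boron footprint library 2 (range -0.15 to 0.24). NIP6;1 (AT1G80760) turned to 0.043 without high-boron footprint library 2, 0.0618 without Ctrl RNA library 2 and 0.0549 without high-boron RNA library 3 (range -0.0876 to 0.0618).

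The 127 calls (121 lower, 6 higher) were 127 with DESeq2 size factors in edgeR, 129 with TMM over all libraries, 135 without organelle genes, 141 without the filter, 104 with a mean count of at least 50, 104 with limma voom, 167 with DESeq2 (14 higher) and 58 (57 lower, 1 higher) with high-boron and Ctrl libraries alone. The strict filter gave 3 higher, voom 4 and no filter 9. Leaving out single libraries gave 36 to 211 calls, 35 to 176 lower and 1 to 35 higher. High boron against low boron gave 114 to 370, low boron against Ctrl (4) 0 to 9, mRNA (829 higher and 838 lower) 782 to 1887 and footprints (82 higher and 268 lower) 120 to 282. Low boron gave 13 with DESeq2, 2 with voom and 1 with the strict filter, mRNA 927 with DESeq2, and footprints 668 without the filter and 209 with the strict filter. Among the 121, mRNA calls were 52 with DESeq2 and 56 to 79 without single libraries. Footprint calls were 74 without the filter, 24 with the strict one and 16 to 30 without single libraries. The cause of these differences was not tested, also for the fits without a library, which hold fewer samples.

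Library numbers were not treated as pairs: deviations from group means correlated at -0.0275 to 0.157 between same-numbered libraries. With a replicate block by number within assay there were 161 calls (148 lower, 13 higher), 2 for low boron and 62 footprint calls among the 121; with a block by boron supply and number, 125 (110 lower, 15 higher) and 2. The low-boron rise of AT3G53400 did not pass with either block (0.0544 and 0.0594). At this depth 280 of the 374 genes at -1 or lower did not pass.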
